A study of Schizosaccharomyces pombe with 36 samples.

Results

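The unselected RNA libraries of the fission yeast Schizosaccharomyces pombe, 6 of the 36 libraries of the series, fell into 2 sets of 3 that did not follow genotype. Set B holds slr1 knockout (KO) cultures 1 and 3 and wild-type (WT) culture 3. Set A holds KO culture 2 and WT cultures 1 and 2. The sets were chosen by the ratio of summed fly counts to summed human counts in each library, which was 1.85 to 2.15 in set B and 0.990 to 1.07 in set A. The libraries nearest to the dividing line were KO 3 in set B at 1.85 and KO 2 in set A at 1.07. This ratio chose the sets and is no result here. Expression of S. pombe genes did not enter it.

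The KO strain (yMAB001) lacks slr1, the gene of a LARP1-like RNA-binding protein, and the WT strain is yAS99. Strains of both genotypes were grown on plates of YES, a rich medium, at 32 °C, and each culture was started from its own colony in 10 mL of liquid medium. All cultures received 5 mM 4-thiouracil, a uracil analogue that cells build into new RNA. Total RNA of each culture gave its steady-state library, and pull-down of the labelled RNA gave 5 more libraries. Nothing in the sources used here gives the liquid medium, the cell density, the moment at which the steady-state cells were taken or what the human and fly RNA was for.

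In S. pombe, glucose and good nitrogen sources keep the genes of gluconeogenesis, mating and meiosis low and the genes of ribosome production high. As nutrients run down, signalling through protein kinase A and TOR complex 1 weakens, and the stress MAP kinase Sty1 with the transcription factor Atf1 raises a common set of stress genes. The urg genes respond to uracil in the medium, and urg1 is used in the laboratory as a uracil-inducible gene. In bulk RNA, a lower level in every cell and a smaller share of cells that carry the mRNA cannot be told apart.

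The libraries held 921427 to 1503133 counts on S. pombe genes in set B and 1910453 to 4244433 in set A. Reads that mapped to several places were 15.95 to 32.1% of all lines of the counter in set B and 37.3 to 48.0% in set A. Both measures separate the sets without overlap, and the part of the not-unique share in the results below was not tested. S. pombe counts per human count overlapped, at 5.04 to 6.51 in set B and 4.02 to 7.74 in set A, whereas S. pombe counts per fly count were 2.499 to 3.23 in set B and 3.75 to 7.48 in set A. The slr1 mRNA followed the genotype labels, with 12.9, 15.5 and 23.9 CPM in KO 1, KO 3 and KO 2, against 123, 133 and 101 CPM in WT 3, WT 1 and WT 2. CPM here is a gene's count over the S. pombe total of its library on the usual scale, with the total adjusted by TMM, edgeR's trimmed mean of M-values. On the first principal component of log2 CPM, which carried 63.5% of the variance, set B lay between −27.8 and −22.56 and set A between 6.361 and 36.15. WT 2 was the set A library nearest to set B, and it lay at the far end of the second component (19.1% of the variance).

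Of 5514 genes tested with genotype in the model, 336 were higher and 362 lower in set B than in set A (6.09% and 6.57%, together 12.7%). A call means a Benjamini-Hochberg adjusted p under 0.05 in edgeR's quasi-likelihood test. The 3 libraries of set B lay clear of the 3 of set A in 2098 genes (38%), and 1660 genes had an unadjusted p under 0.05. In the same fit the genotype term called 1 gene (0.0181%), with 50 at an unadjusted p under 0.05. The set calls rest on few residual degrees of freedom (3). Without WT 3, KO 1, KO 3 or KO 2 no gene passed in edgeR, with 1058, 1183, 1150 and 538 genes at an unadjusted p under 0.05, so each steady-state gene named below as called in the fit of 6 libraries lost its call in these fits. Without WT 1 there were 616 higher and 681 lower genes, and without WT 2 there were 957 and 1141. Scaled to the human counts of each library, 5 genes were higher and 68 lower. Scaled to the fly counts, 1 was higher and 391 lower. Both totals entered the ratio that chose the sets, so these counts are descriptions. Fly scaling moved the median of all genes to −0.89 on the log2 scale, and 203 of the 336 higher genes stayed above 0. With every library thinned at random to the smallest total, an alternative chosen after seeing the data, 259 were higher and 340 lower, and 234 and 308 of the genes called at full depth passed again.

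The uracil-responsive urg genes were far lower in set B than in set A. The urg1 mRNA, annotated as a GTP cyclohydrolase II, had 3.93, 4.74 and 6.18 CPM in WT 3, KO 1 and KO 3 of set B, against 1019, 174 and 1355 CPM in WT 1, WT 2 and KO 2 of set A. Set B averaged 4.95 ± 1.14 CPM and set A 849 ± 608 CPM (SD, n = 3 each), a ratio of means of 172 (log2 fold change −7.71, SE 0.78, adjusted p = 0.0075). All 3 libraries of set B were near the bottom, and WT 2 was the low library of set A. The urg2 mRNA, which encodes a putative uracil phosphoribosyltransferase, had 22.8, 27.7 and 19.6 CPM in WT 3, KO 1 and KO 3, against 1048, 163 and 958 CPM in WT 1, WT 2 and KO 2 (log2 fold change −5.05, SE 0.68, adjusted p = 0.011). For urg3, the gene that lies between them, the values were 116, 150 and 103 CPM in set B and 372, 209 and 407 CPM in set A, in the same order of libraries (log2 fold change −1.51, adjusted p = 0.0165).

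On one side of the urg genes the neighbours did not pass the test. The next gene, tna1, a nicotinic acid transporter, had 8.65, 11.5 and 6.18 CPM in set B and 18.4, 15.0 and 18.6 CPM in set A (log2 fold change −0.99, adjusted p = 0.103), and med6, a Mediator subunit beyond it, stood at −0.06 (adjusted p = 0.90). These neighbours were picked after their values were seen, as was uck2, annotated as a further uracil phosphoribosyltransferase, with 8.65, 8.12 and 6.18 CPM in set B and 85.0, 14.4 and 84.5 CPM in set A (log2 fold change −3.10, adjusted p = 0.0246). Of 10 tested genes of pyrimidine synthesis and the uracil response, the 3 urg genes were lower and none was higher. The shares over all tested genes were 6.57% lower and 6.09% higher. The median log2 fold change of the list was −0.45, against −0.0073 over all tested genes. Of the biosynthesis genes in this list, ura3 had 617, 668 and 636 CPM in WT 3, KO 1 and KO 3 of set B, against 627, 1173 and 948 CPM in WT 1, WT 2 and KO 2 of set A, and the sets did not separate (adjusted p = 0.30). No library held a count on ura4, the orotidine phosphate decarboxylase gene, which allows up to 0.806 CPM over set B and 0.306 CPM over set A (a floor of 3 counts per set, counting error only).

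**Figure D1:**
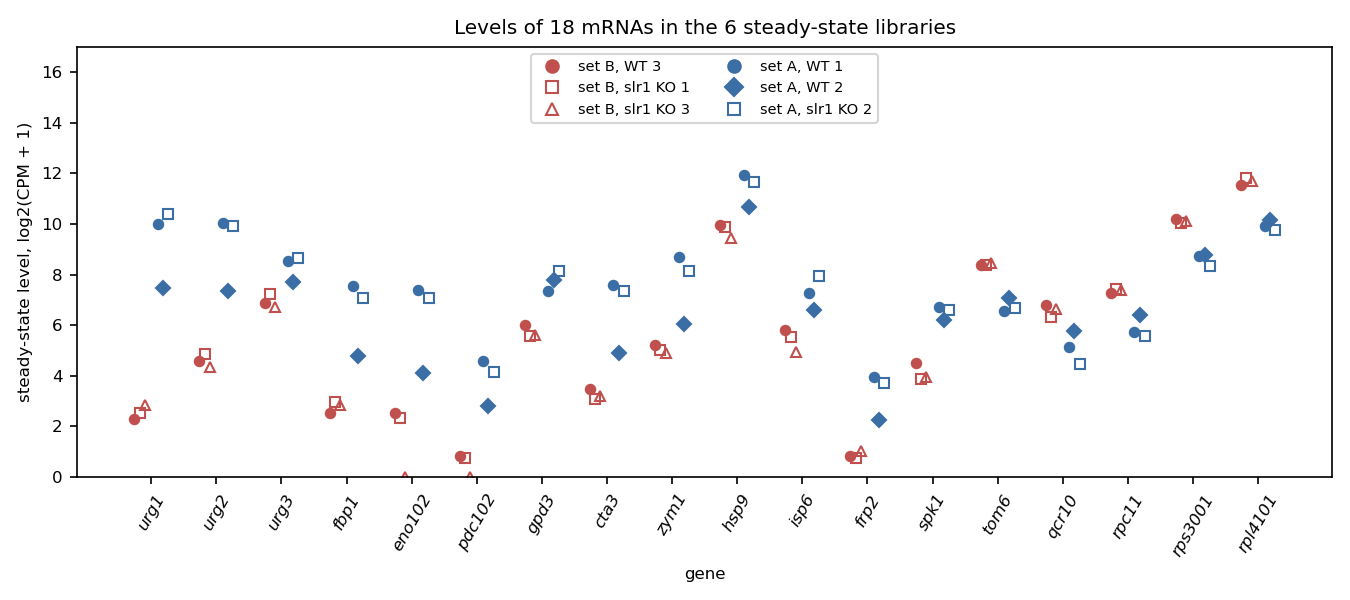
Steady-state levels of 18 mRNAs, as log2(CPM + 1), in each of the 6 libraries, with the 3 libraries of set B in red to the left of the 3 of set A in blue; circles and diamonds are WT, open symbols slr1 KO. The urg1 points of set B lie at 3.93 to 6.18 CPM and those of set A at 174 to 1355 CPM, WT 2 is the lowest blue point for most of the genes that are lower in set B, and the 5 genes at the right edge, tom6 to rpl4101, run the other way.

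Among the genes that glucose keeps low, the gluconeogenic fbp1 was lower in set B. The fbp1 mRNA, which encodes fructose-1,6-bisphosphatase and is a standard reporter of glucose repression, had 4.72, 6.77 and 6.18 CPM in WT 3, KO 1 and KO 3, against 184, 26.3 and 134 CPM in WT 1, WT 2 and KO 2 (log2 fold change −4.40, SE 0.78, adjusted p = 0.0151). WT 2 was again the low library of set A, above all of set B. Of 11 tested glucose-repressed genes, fbp1 and agl1, an alpha-glucosidase (log2 fold change −1.42), were lower (18.2%, against 6.57% of all tested genes). A further alpha-glucosidase gene, mal1, was higher (0.79, SE 0.20, adjusted p = 0.0348), but had −0.11 in the fly scaling, or 0.78 over the median of that scaling. The list median was −0.54. None of the 4 tested hexose transporter genes passed (4 of 8 had counts enough for a test), among them the high-affinity transporter ght5 with 49.5, 71.1 and 56.7 CPM in set B and 54.2, 115 and 116 CPM in set A (adjusted p = 0.102).

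Of 19 genes of glycolysis and fermentation 4 were lower (21.1%, against 6.57% of all tested genes) and none higher. All 4 are additional copies of an enzyme beside the main one. The enolase gene eno102 had 4.72, 4.06 and 0 CPM in WT 3, KO 1 and KO 3, against 167, 16.2 and 132 CPM in WT 1, WT 2 and KO 2 (log2 fold change −5.11, SE 1.03, adjusted p = 0.0192). The glyceraldehyde phosphate dehydrogenase gene gpd3 had 63.7, 46.7 and 48.4 CPM in set B and 164, 221 and 279 CPM in set A (log2 fold change −2.09, SE 0.25, adjusted p = 0.0075). For the pyruvate decarboxylase genes pdc102 and pdc201 set B held 2 and 9 raw counts in all, against 103, 21 and 32 for pdc102 and 57, 39 and 33 for pdc201 in WT 1, WT 2 and KO 2 of set A. These copies resemble their main paralogs in sequence, so reads could be split between them. Over the whole list the levels overlapped, with a summed 24484 to 32446 CPM in set B and 16509 to 40955 CPM in set A, and the median log2 fold change was −0.21.

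Listed enzymes of the tricarboxylic acid cycle, which burns carbon in mitochondria, were lower in set B where they were called. Of 11 tested genes of the list 3 were lower (27.3%, against 6.57% of all tested genes) and none higher. The median was −0.73, and 10 of 11 had a negative fold change. Outside the list, emi5, annotated to succinate dehydrogenase, was higher (log2 fold change 1.67, adjusted p = 0.0137). The malate dehydrogenase mRNA mdh1 had 73.9, 76.5 and 70.1 CPM in WT 3, KO 1 and KO 3, against 150, 259 and 281 CPM in WT 1, WT 2 and KO 2 (log2 fold change −1.71, SE 0.25, adjusted p = 0.0118). The aconitase gene aco1 (−1.27) and the isocitrate dehydrogenase subunit gene idh1 (−0.88) were the others. The summed level of the 11 genes was 1551 to 1820 CPM in set B and 2395 to 3483 CPM in set A, with no overlap. A lactate dehydrogenase of the cytochrome type, SPAPB1A11.03, picked after its values were seen, had no raw count in any library of set B, against 371, 15 and 109 in WT 1, WT 2 and KO 2 of set A, and was at least 62.7-fold lower in set B (floor of 3 counts over the set). WT 1 carried much of this bound, which was 28.8-fold without WT 1 and 94.0-fold without WT 2, and 5.37-fold against WT 2 alone.

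Genes of the respiratory chain were called in both directions. Of 39 genes of oxidative phosphorylation 4 were higher and 1 lower (10.3% and 2.56%, against 6.09% and 6.57% of all tested genes), with a median of 0.00. The lower gene was cyt1, cytochrome c1 of the bc1 complex (−1.13, adjusted p = 0.0214). The higher ones, cox7, qcr10, cox8 (1.02) and atp15 (0.83; −0.03 in the fly scaling, or 0.86 over its median), encode small subunits. Of these, qcr10 of the bc1 complex had 112, 79.2 and 97.9 CPM in WT 3, KO 1 and KO 3, against 34.4, 53.7 and 21.2 CPM in WT 1, WT 2 and KO 2 (log2 fold change 1.65, SE 0.27, adjusted p = 0.0137). The mRNA of cox7, a cytochrome c oxidase subunit, was near the limit of counting in set A, with 11.8, 7.44 and 9.27 CPM in set B and 0.899, 1.73 and 1.06 CPM in set A (log2 fold change 3.07, adjusted p = 0.0151). None of the 36 listed genes of the mitochondrial genome had counts enough for a test.

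Genes of the general stress response were lower in set B where they were called. Of 18 tested genes of the core environmental stress response, 6 were lower (33.3%, against 6.57% of all tested genes) and none higher, with a median of −0.45. The summed level of the list was 4401 to 5630 CPM in set B and 7078 to 9098 CPM in set A. The hsp9 mRNA, which encodes a small stress protein, had 1004, 943 and 688 CPM in WT 3, KO 1 and KO 3, against 3926, 1654 and 3238 CPM in WT 1, WT 2 and KO 2 (log2 fold change −1.73, SE 0.43, adjusted p = 0.0346). The calcium-transporting ATPase gene cta3 had 10.2, 7.44 and 8.24 CPM in set B and 191, 28.9 and 162 CPM in set A (log2 fold change −3.96, adjusted p = 0.0162). The metallothionein gene zym1, which is also the lower gene among the 12 of copper and zinc, had 36.2, 31.8 and 28.9 CPM in set B and 416, 65.3 and 284 CPM in set A (log2 fold change −2.99, adjusted p = 0.0203). For these 3 genes WT 2 was the low library of set A and still above all of set B. The other called members were gst3, a glutathione S-transferase (−1.21), ctt1, catalase (−1.02), and pcr1, the dimer partner of Atf1 (−0.96). By contrast gpd1 and tps1, members named after their values were seen, which make glycerol and trehalose, had log2 fold changes of −0.07 and −0.34 with adjusted p of 0.92 and 0.53.

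Oxidative and protein stress gave mixed or few calls. Of 20 genes of oxidative stress and redox balance 5 were lower and 3 higher, with a median of 0.02. The lower ones were srx1, sulfiredoxin (−1.80, adjusted p = 0.0147), gst3, caf5, a spermine family transporter (−1.04), ctt1 and pap1, the AP-1 transcription factor (−0.90). The higher ones were the glutaredoxin genes grx2 (0.82) and grx5 (0.65) and the thioredoxin gene trx2 (0.78), which stood at −0.08, −0.23 and −0.11 in the fly scaling, or 0.82, 0.67 and 0.78 over its median. Of 21 heat shock protein and chaperone genes 1 was higher (4.76%, against 6.09% of all tested genes) and none lower. It was wos2, the p23 co-chaperone of Hsp90, with 1429, 1211 and 1191 CPM in WT 3, KO 1 and KO 3, against 549, 786 and 535 CPM in WT 1, WT 2 and KO 2 (log2 fold change 1.13, adjusted p = 0.0445). The cyclophilin gene wis2, a further Hsp90 partner and among the 12 largest higher genes, had 1583, 1333 and 1318 CPM in set B and 391, 764 and 455 CPM in set A (log2 fold change 1.50, adjusted p = 0.0289). The kinase gene hri1, whose product phosphorylates the initiation factor eIF2 alpha under stress, was lower (−3.04, adjusted p = 0.0137) and was picked after its values were seen.

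The calls among genes of nitrogen, phosphate and iron supply were all in the lower direction. Of 15 tested genes of nitrogen starvation and amino acid permeases, isp6 and isp7 were lower (13.3%, against 6.57% of all tested genes) and none higher. The vacuolar protease gene isp6, which is induced on nitrogen starvation and needed for sporulation, had 55.8, 45.3 and 29.9 CPM in WT 3, KO 1 and KO 3, against 156, 96.2 and 243 CPM in WT 1, WT 2 and KO 2 (log2 fold change −1.94, SE 0.35, adjusted p = 0.0151). For isp7, an oxygenase family protein that bears on amino acid uptake, the log2 fold change was −1.86 (adjusted p = 0.0237). In the phosphate regulon, 2 of 7 genes (28.6%) were lower: pqr1, a ubiquitin ligase (−1.17), and pho7, the transcription factor of the regulon (−1.01). The regulon's targets pho1 and pho84 were not called. The acid phosphatase gene pho1 had 309, 468 and 459 CPM in set B and 302, 1487 and 502 CPM in set A, where WT 2 was the high library (adjusted p = 0.41).

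Of 11 tested iron genes 3 (27.3%) were lower. These were frp2, a ferric-chelate reductase, with 1 raw count in each library of set B and 65, 13 and 23 in WT 1, WT 2 and KO 2 of set A, sib2, an enzyme of siderophore synthesis (−1.32, adjusted p = 0.0118), and php4, the repressor subunit that acts when iron is short (−1.23, adjusted p = 0.0151). The list median was −0.79, and its summed level was 793 to 899 CPM in set B and 1013 to 1264 CPM in set A. No member passed among 21 genes of sulfur assimilation (median 0.08), 12 of purine synthesis (−0.29) and 9 of the thiamine-repressed genes (−0.13). Among 52 genes taken as amino acid synthesis 3 were higher and 1 lower (5.77% and 1.92%, under the 6.09% and 6.57% of all tested genes). Of these only arg7, argininosuccinate lyase (1.27, adjusted p = 0.0151), and pro2 (0.73, with −0.15 in the fly scaling, or 0.74 over its median) are biosynthetic enzymes. The pair left, arg82 (0.87) and trp1322 (−1.08), encode an inositol polyphosphate kinase and a TRP-like channel that the symbols brought into the list.

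Genes of the cell surface, mating and autophagy were lower in set B where they were called. Of 18 cell wall glucan genes 4 were lower (22.2%, against 6.57% of all tested genes) and none higher, with a median of −0.47. The summed level of the list was 4868 to 5209 CPM in set B and 6898 to 10577 CPM in set A. The glucanosyltransferase gene gas2 had 944, 836 and 811 CPM in WT 3, KO 1 and KO 3, against 1572, 2445 and 3224 CPM in WT 1, WT 2 and KO 2 (log2 fold change −1.53, SE 0.37, adjusted p = 0.0308). Its paralog gas1 (−1.31), the alpha-glucan synthase gene mok13 (−1.46) and the beta-glucan synthase gene bgs1 (−0.86) were the others. Of 28 autophagy genes 5 were lower (17.9%, against 6.57% of all tested genes) and none higher, with a median of −0.35. The summed level of the list was 1351 to 1385 CPM in set B and 1543 to 1730 CPM in set A. The lower genes were atg13 (−1.16) and atg1 (−0.85), regulator and kinase of the initiating complex, atg14 (−0.92) of the lipid kinase complex, atg1801 (−1.11) and the protease gene atg4 (−0.88). None of 11 tested genes of flocculation and the cell surface passed (median −0.28).

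Of 16 tested mating genes 3 were lower (18.8%, against 6.57% of all tested genes) and none higher, with a median of −0.58. The MAP kinase gene of the pheromone pathway, spk1, had 22.0, 13.5 and 14.4 CPM in WT 3, KO 1 and KO 3, against 105, 72.2 and 96.7 CPM in WT 1, WT 2 and KO 2 (log2 fold change −2.41, SE 0.27, adjusted p = 0.0075). Here WT 2 lay close to the other libraries of set A. The G protein gene gpa1 (−0.90) and the M-factor precursor gene mfm2 (−1.25) were lower as well. The master regulator of mating, ste11, had 54.2, 65.7 and 51.5 CPM in set B and 74.9, 106 and 85.5 CPM in set A, and did not pass (log2 fold change −0.63, adjusted p = 0.0896). Of 16 genes of meiosis and sporulation 6 had counts enough for a test and none passed, with all 6 below 0. Of 65 tested mug genes, so named for their rise in meiosis, 9 were lower and 3 higher (13.8% and 4.62%, against 6.57% and 6.09% of all tested genes). The higher ones were mug151, mug64 (0.87) and mug35 (0.78; −0.09 in the fly scaling, or 0.80 over its median). Of the lower ones mug108 had 4 raw counts over set B, against 527, 74 and 266 in WT 1, WT 2 and KO 2, and mug133 had 8 over set B, against 167, 18 and 59.

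Genes of the ribosome had no common direction. Of 136 genes of cytosolic ribosomal proteins, 4 were higher and 1 lower (over all tested genes the shares were 6.09% and 6.57%), and their median was −0.01. The summed level of these genes was 223006, 251487 and 207271 CPM in WT 3, KO 1 and KO 3, against 159485, 317917 and 215714 CPM in WT 1, WT 2 and KO 2. The sets overlapped, and the widest gap lay within set A, between its WT cultures. The 4 higher genes are the 2 copies each of the genes for the small proteins eL41 and eS30: rpl4101 (3001, 3618 and 3336 CPM in set B, 968, 1155 and 866 CPM in set A, log2 fold change 1.75, adjusted p = 0.0225), rpl4102 (1.42), rps3001 (1164, 1065 and 1106 CPM in set B, 423, 436 and 326 CPM in set A, 1.59, adjusted p = 0.0151) and rps3002 (1.27). Reads of such near-identical pairs can be lost or split between the copies, so the single values are uncertain. The lower gene was rps1401 (−0.96), whose sets overlapped.

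Ribosome production and translation gave a few further calls. Over all tested genes 6.09% were called higher. The share was 15.0% for RNA polymerases I and III and 12.8% for mitochondrial ribosomal proteins. It was lower than over all genes for ribosome biogenesis (2.67%), initiation factors (3.85%) and the proteasome (5.88%). Of 20 subunit genes of RNA polymerases I and III, rpc11 (156, 171 and 169 CPM in set B, 52.4, 82.9 and 46.7 CPM in set A, log2 fold change 1.52, SE 0.25, adjusted p = 0.0137) was higher, as were rpc19 (0.82) and rpc17 (0.78), with −0.06 and −0.10 in the fly scaling, or 0.84 and 0.79 over the median of that scaling. Of 75 genes listed for ribosome biogenesis, nop10, a small subunit of box H/ACA particles, was higher (1.26, adjusted p = 0.0255), and so was rlp1 (1.03), which is annotated as a RecA family ATPase. None of 9 elongation factor genes passed, although all 9 lay below 0 (median −0.35). Of 26 initiation factor genes, tif1102, an eIF1A-like factor, was higher (0.86; −0.04 in the fly scaling, or 0.86 over its median). Of 39 mitochondrial ribosomal protein genes 5 were higher and none lower, led by mrps17 (1.23, adjusted p = 0.0139); mrpl28 (0.79) and mrpl15 (0.76) had −0.09 and −0.14 in the fly scaling, or 0.80 and 0.75 over its median. Of 34 proteasome genes rpn10 (0.79) and rpn501 (0.71) were higher, with −0.10 and −0.19 in the fly scaling, or 0.79 and 0.70 over its median. The histone genes gave no call (10 tested, median −0.34). Of 13 tested G1/S genes 1 was lower, tos4 (−0.90). Of 17 genes of mitosis and cell separation 1 was lower, mid2 (−1.10), a septin ring organiser. The shares were 7.69% and 5.88%, against 6.57% of all tested genes called lower. Of the 17 genes 16 lay below 0 and 1 above (median −0.39).

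**Figure D2:**
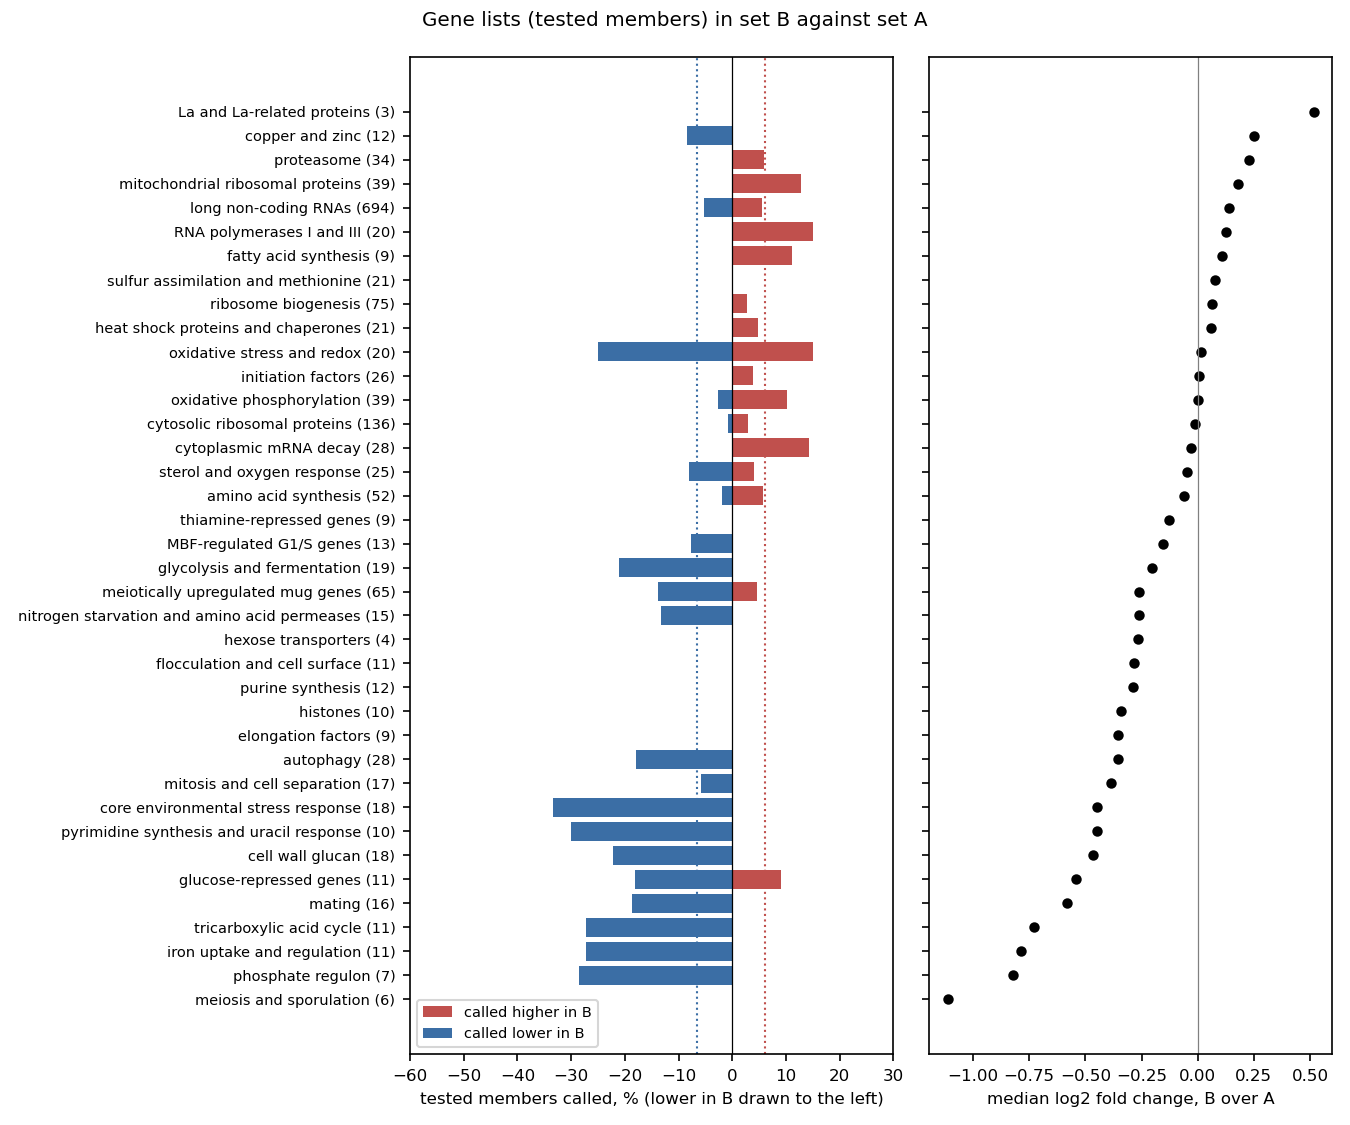
Left: share of the tested members of each gene list called higher (red, right of 0) and lower (blue, left of 0) in set B than in set A, with dotted lines at 6.09% and 6.57%, the shares over all tested genes; the number of tested members stands in parentheses. Right: median log2 fold change of each list, B over A, from 0.52 (3 La and La-related genes) to −1.11 (6 genes of meiosis and sporulation). In the fly scaling the medians of all lists shown lie below 0, and the median of all genes is −0.89.

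Membrane and lipid genes held few calls, and the calls among RNA decay genes were all in the higher direction. Of 25 genes of the sterol and oxygen response 2 were lower and 1 higher (8.0% and 4.0%, against 6.57% and 6.09% of all tested genes). Lower were sur2, a sphingolipid hydroxylase (−1.24), and sre1, the sterol-sensing transcription factor (−0.79), while ofd2, an oxygenase family member, was higher (1.26, adjusted p = 0.0178). Of 9 genes of fatty acid synthesis 1 was higher (11.1%, against 6.09% of all tested genes) and none lower. It was the acyl-CoA binding protein gene acb1, with 785, 660 and 723 CPM in WT 3, KO 1 and KO 3, against 338, 381 and 274 CPM in WT 1, WT 2 and KO 2 (log2 fold change 1.23, adjusted p = 0.0207). Of 28 genes of cytoplasmic mRNA decay 4 were higher (14.3%, against 6.09% of all tested genes) and none lower. The 4 were the Lsm ring genes lsm1 (1.02), lsm6 (0.96) and lsm5 (0.93) and dcp1, of the decapping complex (1.16). Their exon lengths, 706, 382, 646 and 690 bases, are under the median of 1695 over all tested genes. None of the 3 tested La and La-related genes, slr1 among them, passed for the set term.

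The 12 largest in each direction held further genes. Lower in set B were cmt2, a catechol O-methyltransferase, with 31.4, 28.4 and 22.7 CPM in WT 3, KO 1 and KO 3, against 964, 122 and 659 CPM in WT 1, WT 2 and KO 2 (log2 fold change −4.40, SE 0.71, adjusted p = 0.0136), and atf21, an ATF/CREB transcription factor (7 raw counts over set B, against 107, 13 and 58 in WT 1, WT 2 and KO 2). The non-coding RNA prl14 had 8 raw counts over set B, against 351, 45 and 127 in WT 1, WT 2 and KO 2. The cmt2 paralog cmt1 (−2.38) was also lower, picked after its values were seen. For fub2, of the PI31 proteasome regulator family, set B held 1 raw count, against 354, 11 and 115 in WT 1, WT 2 and KO 2, so most of the counts of set A came from WT 1 and WT 2 lay far below it. Higher in set B were tom6, named for the small subunit of the mitochondrial outer membrane translocase, with 332, 329 and 350 CPM in WT 3, KO 1 and KO 3, against 93.5, 135 and 101 CPM in WT 1, WT 2 and KO 2 (log2 fold change 1.64, SE 0.23, adjusted p = 0.0114), emi5, annotated to succinate dehydrogenase (1.67), coa4, a respiratory chain assembly protein (1.47), nce101 (1.45), tam13 (1.66), mug151 (1.58) and stc1, which links Argonaute to the heterochromatin methyltransferase complex (1.45).

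A pair of neighbouring genes without a symbol was higher in set B, and both were picked after their values were seen. SPBPB10D8.02c, annotated as an arylsulfatase, had 24.4, 18.3 and 22.7 CPM in WT 3, KO 1 and KO 3, against 3.15, 2.60 and 0 CPM in WT 1, WT 2 and KO 2 (log2 fold change 3.68, SE 0.59, adjusted p = 0.0136). Next to it, SPBPB10D8.01, annotated as a cysteine transporter, had 65.2, 57.5 and 50.5 CPM in set B and 17.1, 15.9 and 7.97 CPM in set A (log2 fold change 2.29, adjusted p = 0.0075). In neither gene did WT 2 stand apart from the rest of set A.

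The fold changes varied with annotated transcript length. Genes higher in set B had a median exon length of 1033 bases and genes lower in set B 1984 bases, against 1695 over all tested genes, and the 12 largest higher genes had a median of 432.5 bases. Among 150 protein-coding genes of up to 500 bases the median log2 fold change was 0.53, with 19.3% higher and 2% lower. Among 306 protein-coding genes over 4000 bases it was −0.18, with 0.654% higher and 7.19% lower. Between these ends the median went down from bin to bin except for a near-equal pair, at 0.29 from 501 to 750 bases, 0.30 to 1000, 0.095 to 1500, −0.072 to 2000, −0.15 to 3000 and −0.17 to 4000. Over 4792 protein-coding genes Spearman's rho between length and fold change was −0.313, a description across genes that share the same 6 libraries. The ribosomal protein genes, although short (median 614.5 bases), had a median fold change of −0.01.

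When the trend with length was taken out of each library, an alternative chosen after seeing the data, 128 genes were higher and 251 lower, and 116 and 232 of the genes called before passed again. Named genes that kept their call were urg1 (−7.66), urg2 (−5.30), urg3 (−1.49), fbp1 (−4.37), cta3 (−3.75), zym1 (−3.49), hsp9 (−2.10), eno102 (−5.14), mdh1 (−1.80), spk1 (−2.33), isp6 (−1.84), gas2 (−1.54) and, of the higher ones, tom6 (1.02), qcr10 (1.10), rpc11 (1.02), rps3001 (1.06) and cox7 (2.36). The call was lost for 28 named genes, and their fold changes moved by very different amounts. As a share of the earlier value, the drop among the higher of these genes was widest for lsm6 (0.37, against 0.96 before) and rpl4102 (0.60, against 1.42). Next came nop10 (0.63, against 1.26), rpc19 (0.43, against 0.82) and rpc17 (0.41, against 0.78). In log2 units coa4 (0.79, against 1.47) dropped by more than lsm6, nop10, rpc19 and rpc17. For rpl4101 (1.12, adjusted p = 0.0617), acb1, coa4, nce101, tam13, stc1, wos2, lsm1, dcp1, tif1102, mrpl15, mrpl28, rpn10 and arg82 among the higher genes and sre1 among the lower ones, the change kept its sign but shrank too. For rpn501 (0.65, against 0.71 before) among the higher genes, and for pdc201 (−2.39, against −2.53), gas1 (−1.21, against −1.31), mid2 (−0.96, against −1.10), tos4 (−0.78, against −0.90) and trp1322 (−0.91, against −1.08) among the lower ones, the change was nearly as large as before and adjusted p was 0.0502 to 0.0608. The lactate dehydrogenase gene SPAPB1A11.03 (adjusted p = 0.0567) and SPNCRNA.1482 (0.0534), with 0 and 1 raw counts over set B, just missed the threshold as well.

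**Figure D3:**
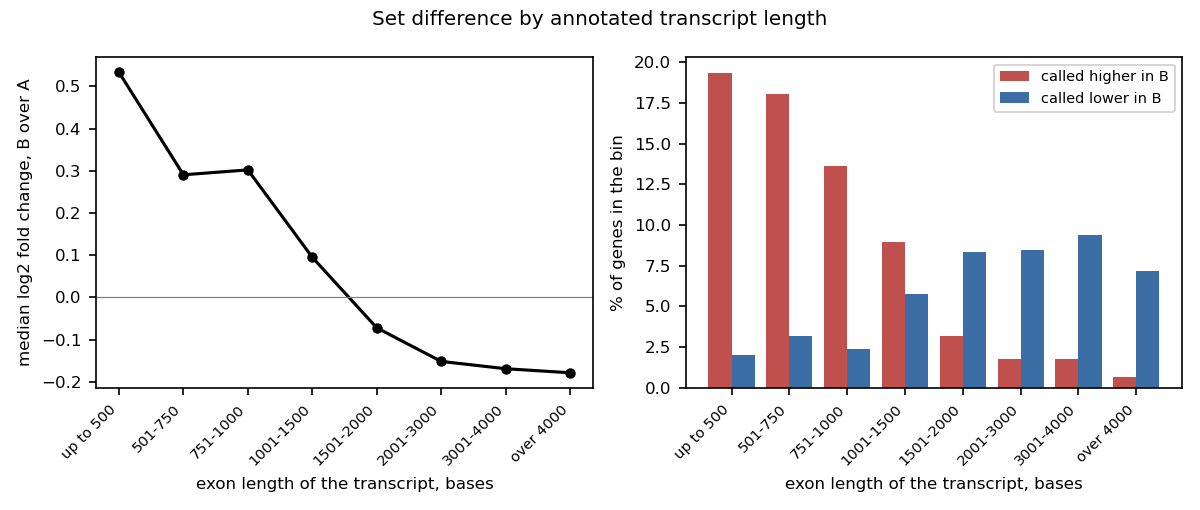
Left: median log2 fold change, B over A, of protein-coding genes in bins of annotated exon length (bases), 150 to 1126 genes a bin. Right: percentage of the genes of each bin called higher (red) and lower (blue) in set B; the higher calls drop from 19.3% at up to 500 bases to 0.654% over 4000, and the lower calls go from 2% to 7.19%.

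Long non-coding RNAs were called at shares near those of all genes. Of 694 tested of 1535 listed, 38 were higher and 37 lower in set B (5.48% and 5.33%, against 6.09% and 6.57% over all tested genes). The list median was 0.14, and −0.75 in the fly scaling, or 0.14 over the median of that scaling. The lower ones with the widest change were SPNCRNA.1354, with no raw count in set B and 24, 15 and 15 in WT 1, WT 2 and KO 2 (at least 6.84-fold lower, floor of 3 counts over the set), SPNCRNA.1482, with 1 raw count over set B and 311, 6 and 71 in WT 1, WT 2 and KO 2, and prl61, with 3 over set B and 327, 48 and 100. For SPNCRNA.1482 the library WT 2 lay near set B, at 1.73 CPM against 0.79 CPM in WT 3. No source used here gives the strand setting of the counting, so an antisense RNA and its partner gene may share reads. None of the 196 tRNA genes, and 2 of 49 ribosomal RNA genes, had counts enough for a test.

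Within a genotype the sets could be set side by side in few libraries, 2 of set B and 1 of set A in KO, and 1 of set B and 2 of set A in WT. An arm of 1 library has no spread of its own, so a deviation of KO 2 or WT 3 and a set difference cannot be told apart there, and the fold changes are descriptions. In KO and in WT the log2 fold changes were −7.97 and −7.27 for urg1, −4.34 and −4.51 for fbp1, −4.37 and −3.47 for cta3, −2.64 and −1.22 for isp6, 1.74 and 1.50 for tom6, and 2.01 and 1.46 for rpl4101. Where WT 3 was assumed to vary like the others, 2 of all genes tested were higher and 42 lower in WT (0.0342% and 0.718%). There 69 of the 94 genes compared lost their call in edgeR, among them isp6, tom6 and rpl4101 (adjusted p = 0.56, 0.32 and 0.9996). The test of a difference between genotypes, the interaction of set and genotype, called 0 of 5647 genes (0%) in edgeR with 64 at an unadjusted p under 0.05, and 0 in DESeq2 with 29. That test has 2 residual degrees of freedom, WT 3 and KO 2 are each alone in their set and genotype, and without WT 1 it called 386 genes and without WT 2 it called 112.

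The labelled RNA of the same cultures gave a second measurement of the same sets, in libraries that did not enter the choice, each time point in a fit of its own. The time points are named by number, because no source used here gives their unit. Of the genes tested at 5, 20, 50, 105 and 125, 16, 107, 28, 57 and 70 were higher in set B (0.288, 1.87, 0.491, 1.01 and 1.23%) and 61, 206, 75, 106 and 163 lower (1.1, 3.6, 1.32, 1.88 and 2.87%). Of the genes lower at steady state, 51 of 356, 151 of 361, 63 of 358, 85 of 360 and 88 of 359 were again called lower. Of those higher at steady state, 9 of 329, 44 of 334, 14 of 335, 38 of 334 and 38 of 335 were again called higher. The libraries share their cultures with the steady-state ones, so they are no independent sample of cultures.

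The urg1 mRNA stayed apart between the sets throughout. In labelled RNA at time point 20 it had 16.5, 7.89 and 25.6 CPM in WT 3, KO 1 and KO 3 of set B, against 2613, 190 and 2138 CPM in WT 1, WT 2 and KO 2 of set A (log2 fold change −6.79, adjusted p = 0.0197). At 125 it had 12.3, 7.36 and 5.03 CPM in set B and 695, 80.0 and 952 CPM in set A (−6.04, adjusted p = 0.0013). At 5 and 50 the sets did not overlap either, although the call was missed (adjusted p = 0.0522 and 0.0597). The sets came close at 50, with 36.2 CPM in WT 3 of set B and 42.7 CPM in WT 2 of set A. The cmt2 mRNA was called lower at each of the 5 time points, with log2 fold changes of −4.72, −5.58, −5.31, −2.69 and −3.30. The arylsulfatase gene SPBPB10D8.02c was called higher at each of the 5, with 3.23, 3.55, 4.47, 4.70 and 4.03.

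Of 91 named genes called at steady state, 8 were called in the same direction at each of the 5 labelled time points, 39 at some and 44 at none. Beside cmt2 and SPBPB10D8.02c, the 8 were the MAP kinase gene spk1 (−2.27, −2.73, −2.33, −2.18 and −1.88), the M-factor gene mfm2 (−2.85, −2.46, −2.04, −2.91 and −2.76), the transporter gene SPBPB10D8.01 (2.80, 2.24, 2.27, 2.25 and 1.97), the non-coding RNA prl14 and 2 uncharacterized genes, SPCC737.04 and SPAC16A10.01. Genes that were called at fewer time points included fbp1 and hsp9. The fbp1 mRNA stood at −3.88, −3.87, −3.18, −2.45 and −2.75 at the 5 time points and passed at 105 and 125. The hsp9 mRNA passed at 20 (−1.96, adjusted p = 0.0481) and stood at −0.35 at 50 (adjusted p = 0.65), where set B had 2117, 674 and 1285 CPM in WT 3, KO 1 and KO 3 and set A 2922, 1561 and 1510 CPM in WT 1, WT 2 and KO 2. For tom6 the labelled sets overlapped at each of the 5 time points and no call was made (adjusted p of 0.39, 0.41, 0.16, 0.77 and 0.64). At 125 KO 3 was the low library of set B with 13.8 CPM, against 83.6 and 158 CPM in WT 3 and KO 1 and 99.5 to 160 CPM in set A.

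**Figure D4:**
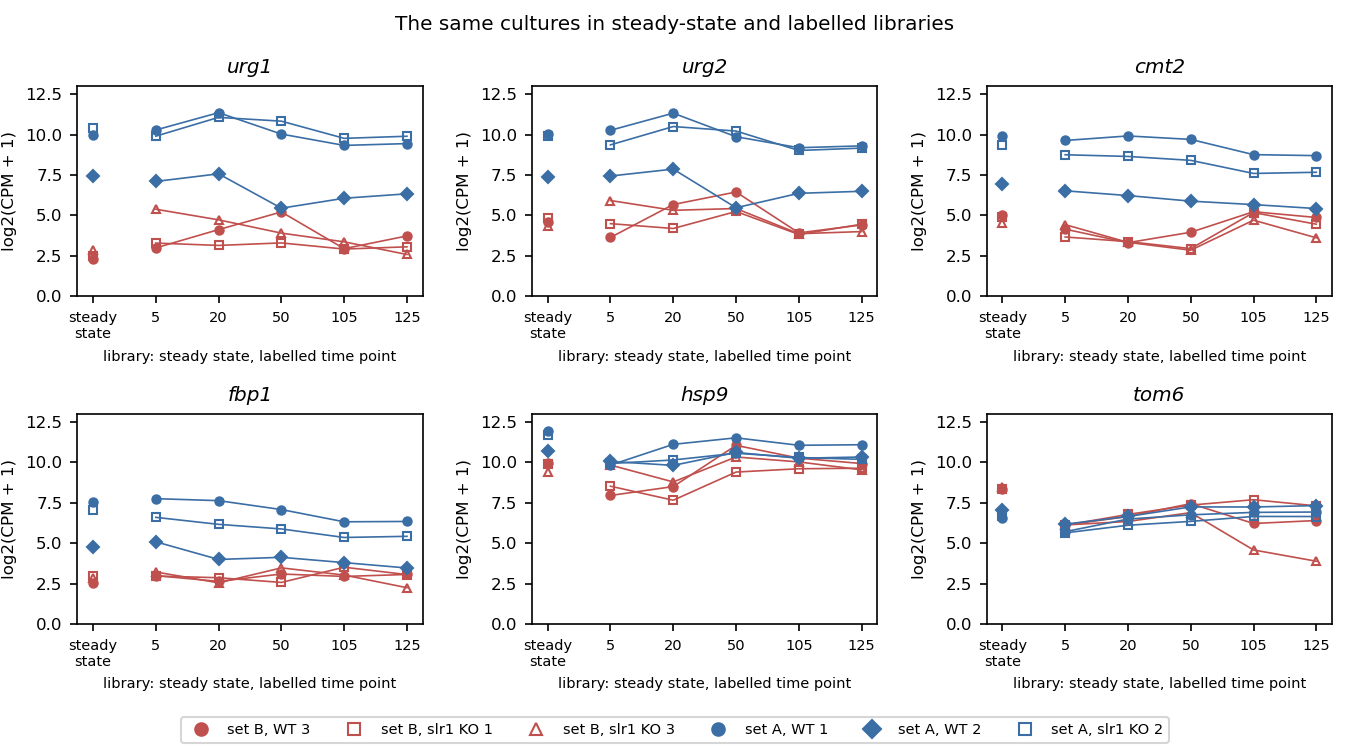
Levels of 6 mRNAs, as log2(CPM + 1), in the steady-state library and the 5 labelled libraries (time points 5 to 125, unit not given) of each culture, with set B in red and set A in blue; lines join the labelled libraries of a culture. For urg1, urg2, cmt2 and fbp1 the blue lines lie above the red ones at each time point except for urg2 at 50, with WT 2 nearest to set B, and for tom6 the sets overlap in labelled RNA.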

How the data were processed

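Per the submitters' processing notes, the tools were STAR 2.5.2a, HTSeq 0.6.1p2, Trimmomatic 0.36 and R 3.5.2. The authors deposited raw counts per gene for each library; no source used here gives builds, annotation or strand setting. Of the 7268 S. pombe rows, 5514 had counts enough for a test at steady state. Of all S. pombe rows, 6862 matched the RefSeq table of ASM294v3, which gave names, products and exon lengths. Human (28006) and fly (17104) rows entered as totals. Rows of the counter's summary stayed out; reads without a feature made up 6.97 to 8.49% of lines at steady state.

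Counts were scaled by TMM and tested by quasi-likelihood in edgeR 4.0.16 under R 4.3.3, with set and genotype as terms. Low genes were left out by filterByExpr (minimum count 10), and p-values were adjusted after Benjamini and Hochberg over all tested genes. DESeq2 1.42.0 was an alternative. The procedure was tested on simulated data. The simulated counts had the same spread for every gene, so they do not show how the fit behaves with the spread between these cultures. The sets, the 43 gene lists and the named genes were chosen with earlier results of these data known, so p-values are descriptive of these libraries. Named genes are slr1, the 12 largest called each way (symbol, mean of at least 10 CPM, no overlap) and up to 3 called members per list; others are named as picked later or as the remaining called members of a list. With 3 libraries against 3, an exact two-sided permutation test of a single value cannot go below 0.1. Whether culture numbers pair the libraries could not be told, and the main fit has no term for them.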

Additional observations from a re-analysis of the deposited data

How the results depend on the processing

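Leaving out each culture in turn gave 0 to 957 genes higher and 0 to 1141 lower in set B. Leaving out WT 1, WT 2, KO 1 or KO 3 gave 0 to 386 genes with a set effect that differed between genotypes; without WT 3 or KO 2 it cannot be estimated. The number of genes higher was 5 scaled to human counts, 1 scaled to fly counts, 220 with DESeq2, 531 without the genotype term, 84 with the replicate block, 2 within WT, 987 within KO and 128 with the length trend removed. The number lower was 68 scaled to human counts, 489 without the genotype term, 243 with the replicate block, 42 within WT and 1058 within KO. For the interaction, the highest count came without WT 1 (386) and the next without WT 2 (112). Within WT and within KO an arm holds 1 library whose spread is assumed, not measured. The cause of these changes was not tested, and the fits that left libraries out also had fewer libraries.

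Whether culture numbers pair the libraries could not be told. The deviations of same-numbered WT and KO libraries had r of −0.576, 0.111 and 0.681, and WT 1 deviated most like KO 2 (0.639). The set difference is part of these deviations, so r cannot show pairing or its absence. With the block, 44 of the 336 higher and 145 of the 362 lower genes kept their call.

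Scaled to fly counts, log2 fold changes turned below 0 for rpn501 (−0.19), mrpl15 (−0.14), mal1 (−0.11), rpc17 (−0.10), rpn10 (−0.10), mrpl28 (−0.090), rpc19 (−0.056) and tif1102 (−0.035), since the median of all genes moved to −0.89; relative to it 0 of 94 named genes changed sign. RLE scaling (293 and 389), no filter (352 and 410) and thinning (259 and 340) moved the counts by less. Low totals in set B, from 921427 counts, limit genes under about 1 CPM.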
